A study of Homo sapiens with 8 samples.

Results

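The genes described here are 8 transcription factor genes of neuroendocrine cells, namely INSM1, NEUROD1, ISL1, FOXA1, FOXA2, ST18 and MYT1, together with REST, a repressor of neuronal genes. Every non-control probe that carried one of these gene names on the array was taken, which gave 10 of 50599 probes and 8 of 36337 gene names. FOXA1 and MYT1 had a pair of probes each, and the probe with the highest mean over the 8 arrays stood for the gene. RNA of 2 thyroid cell lines was hybridized to 8 one-colour Agilent arrays, 2 per group. Nthy-ori 3-1 is an immortalized non-tumour line from the thyroid follicle, grown in RPMI medium. Its 4 samples were cells that received pre-miR-375, a precursor mimic meant to raise miR-375, and control cells. TT is a line derived from a medullary thyroid carcinoma, grown in DMEM/F12. Its 4 samples were cells that received antagomiR-375, directed against the same miRNA to inhibit it, and control cells. The labels call both controls CTL and do not name the reagent. Transfection lasted 48 h in all groups, with 5 nM given for the precursor and 20 nM for the inhibitor, and 0.2 µg of RNA was labelled. These doses are those of the labels, and the study's methods state higher final concentrations for both. Each condition is known from 1 cell line. The study's methods call the replicates biological, the labels do not say what separated them, and p-values measure the spread between these arrays.

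Parafollicular C cells are the calcitonin-producing endocrine cells of the thyroid, and medullary thyroid carcinoma arises from them. INSM1, NEUROD1, ISL1, ST18 and MYT1 belong to the zinc finger, bHLH and LIM homeodomain factors that drive endocrine and neuronal differentiation, while FOXA1 and FOXA2 are forkhead pioneer factors of endoderm-derived organs. REST acts in the opposite direction: it binds a long DNA element near neuronal and secretory granule genes and recruits corepressors, in cells that are neither neurons nor endocrine cells. miR-375 is a miRNA of endocrine cells, highly expressed in pancreatic islets and in C cells. A miRNA pairs with messenger RNAs mainly through its seed, so the mature sequence that the precursor yields and the inhibitor is directed against is shown with the seed, bases 2 to 8, in capitals (RefSeq, GRCh38.p14, chr2:219001648-219001669, minus strand).
hsa-miR-375-3p: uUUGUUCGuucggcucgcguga

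Levels are log2 processed signals after quantile normalization of the 8 arrays, and a difference is called where the adjusted p of limma, with Benjamini-Hochberg adjustment over all probes, is at most 0.05. A probe counts as measured in a group where Feature Extraction found it well above background on both arrays. The lowest level of any probe well above background lay between 3.44 and 4.52 on the 8 arrays. The array has 0 probes for MIR375, so the transfections were looked at on SEC23A, a COPII coat gene known as a miR-375 target. The study picked SEC23A partly by its values on these same arrays, so it is no independent check. The level of SEC23A was 1.39 lower with pre-miR-375 in Nthy-ori 3-1 and 0.65 higher with antagomiR-375 in TT. Each direction was the same in both pairs of arrays, and neither difference was called (adjusted p = 0.318 and 0.512). The TT label was checked on C cell markers, of which 11 of 12 are on the array: all 11 were well above background on every TT array, and 10 were called higher in TT than in Nthy-ori 3-1. The level of CALCA, the calcitonin gene, was 18.55 in TT control and 3.74 in Nthy-ori 3-1 control cells, where it was not well above background. The follicular label of Nthy-ori 3-1 was less well borne out, since 6 of 11 follicular markers were well above background on each of its arrays and 6 or 7 of 11 on each TT array. In TT, 3 of the 11 were called higher, HHEX (4.60), TG (4.26) and DIO1 (at least 5.26-fold), and 2 lower, PAX8 (-5.25) and FOXE1 (at least 35.7-fold). Of the 10 fibroblast and mesenchymal markers, 6 were called lower in TT, with VIM at a difference of -11.72, and 1 higher, LUM, with 2.38. Of 6 endothelial and leucocyte markers 1 was called higher and 2 lower in TT. Beside these marker counts, 12.9% of all probes were called higher in TT and 12.8% lower. Each slide held 1 line, and RIN was 8 on both TT control arrays and 9 on every other array. Slide, medium, dose, control reagent, RIN and line therefore cannot be told apart between the controls, nor RIN and antagomiR-375 within TT.

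**Figure D1:**
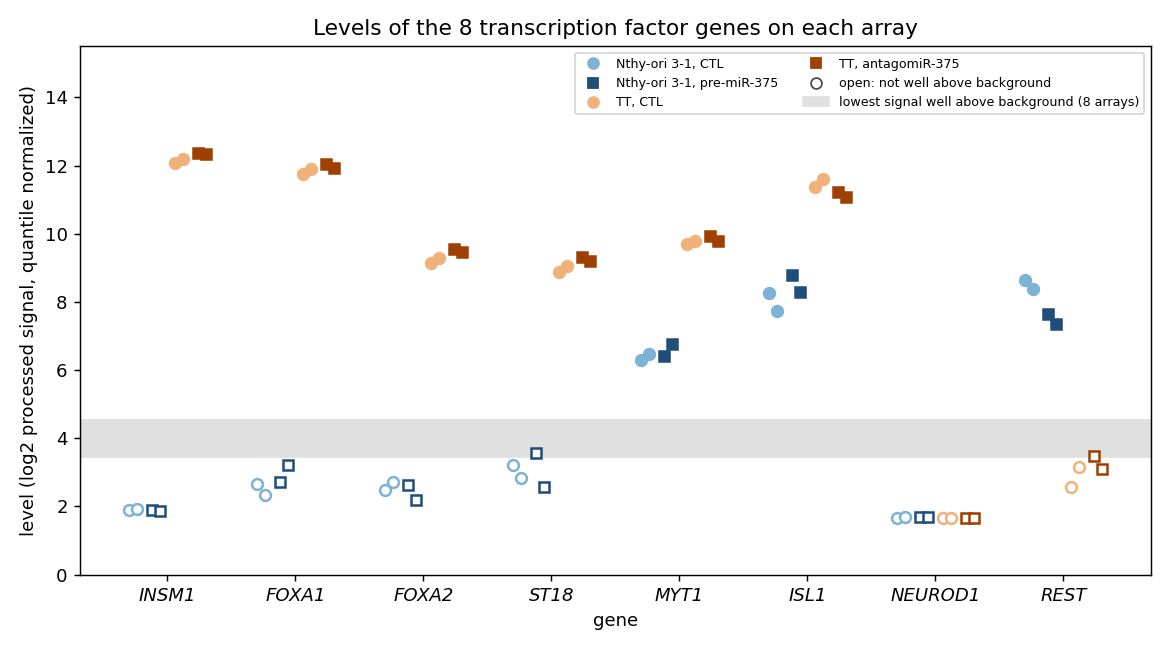
Level of each of the 8 genes on each of the 8 arrays. The vertical axis is the log2 processed signal after quantile normalization, circles are control arrays, squares are transfected arrays, open symbols are arrays on which the probe was not well above background, and the grey band is the range over arrays of the lowest level well above background. INSM1, FOXA1, FOXA2 and ST18 are measured in TT and open in Nthy-ori 3-1, REST is the reverse, ISL1 and MYT1 are measured on all 8 arrays, and NEUROD1 is open everywhere.

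In the control cells, 7 of the 8 genes differed between the lines. INSM1, FOXA1, FOXA2, ST18, ISL1 and MYT1 were higher in TT and REST was lower, while NEUROD1 was not well above background in either line. Of all 50584 probes tested, 25.8% were called in this comparison, 12.9% as higher in TT and 12.8% as lower. Leaving out TT control replicate 1 left 0 of the 8 genes and 0 of all probes called, and leaving out TT control replicate 2 left 4 genes called, with the lone TT array assumed to vary like the others. Over the 11 alternatives the direction of each of the 7 genes was the same.

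INSM1 is a zinc finger repressor that marks neuroendocrine cells and their tumours. Its probe (NM_002196, hg19 chr20:20351123-20351182, plus strand) had levels of 12.07 and 12.20 in TT control cells and 1.89 and 1.91 in Nthy-ori 3-1 control cells. The second pair lies below the lowest level well above background, so the ratio is a bound, and INSM1 was at least 219-fold higher in TT (adjusted p = 0.00125). Here and below, such a bound sets the mean of the brighter group against the dimmer arrays, each taken at its lowest level well above background or at the probe's own level where that was higher. These bounds hold for the processed signal only. With another background correction (normexp) the log2 difference of INSM1 was 6.36, which is under its bound.

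FOXA1 opens chromatin for other factors in endoderm, breast and prostate. Its probe of 10 spots (NM_004496, hg19 chr14:38059546-38059605, minus strand) read 11.75 and 11.91 in TT control against 2.67 and 2.33 in Nthy-ori 3-1 control cells. FOXA1 was at least 177-fold higher in TT (adjusted p = 0.00128). The other probe of the gene, of transcript ENST00000557418, was dimmer, with 6.41 and 6.30 in TT control and 3.55 and 2.00 in Nthy-ori 3-1 control cells, a ratio of at least 3.99-fold (adjusted p = 0.0366).

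FOXA2, the close relative of FOXA1 that acts in foregut and pancreas, read 9.15 and 9.28 in TT control and 2.48 and 2.71 in Nthy-ori 3-1 control cells. It was at least 29.0-fold higher in TT (adjusted p = 0.00141). Both forkhead genes were thus measured in TT alone.

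ST18 and MYT1 encode zinc finger proteins of 1 family that act in neurons and in pancreatic endocrine cells. ST18 read 8.89 and 9.05 in TT control and 3.21 and 2.83 in Nthy-ori 3-1 control cells, at least 24.5-fold higher in TT (adjusted p = 0.00207). MYT1 was measured in both lines, at 9.70 and 9.80 in TT control and 6.28 and 6.49 in Nthy-ori 3-1 control cells. Its log2 difference was 3.37 (SE 0.15, adjusted p = 0.00304), and that of its other probe, NM_004535, was 4.58 (adjusted p = 0.00366).

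ISL1, a LIM homeodomain factor of motor neurons and endocrine cells, read 11.37 and 11.60 in TT control and 8.27 and 7.72 in Nthy-ori 3-1 control cells. It was thus measured on every Nthy-ori 3-1 array, and the log2 difference was 3.49 (SE 0.26, adjusted p = 0.00723). NEUROD1, a bHLH factor of endocrine cells, lay between 1.66 and 1.69 on all 8 arrays, well above background on 0 of them, and no difference can be read from it.

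REST ran the other way. Its probe (NM_005612, hg19 chr4:57798055-57798114, plus strand) read 8.64 and 8.38 in Nthy-ori 3-1 control cells and 2.56 and 3.15 in TT control cells, where it was not well above background. REST was at least 30.1-fold lower in TT (adjusted p = 0.00366). No array of TT cells, treated or not, had REST well above background.

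Other factors of the same programmes were taken from 4 lists. Of 26 further neuroendocrine transcription factors, 13 were called higher and 1 lower in TT, against 12.9% and 12.8% of all probes. Their median log2 difference was 1.15 against -0.05 over all probes. Among those called, SOX11 was at least 60.3-fold and POU3F2 at least 13.7-fold higher, and ONECUT2 was higher by 5.97 on the log2 scale. Of 14 foregut endoderm factors, 2 were called higher and 2 lower, a share near the 25.8% of all probes and so no result about the list. NKX2-1, a factor of both thyroid cell types and of lung, was at least 243-fold higher in TT and read between 1.93 and 1.98 on all Nthy-ori 3-1 arrays, HHEX was higher by 4.60, GATA6 was at least 21.9-fold lower and SOX9 differed by -0.72.

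The ID, HES and HEY proteins restrain bHLH factors such as NEUROD1. Of the 9 genes of this list, 4 were called higher in TT, namely ID2 (4.69), ID4 (at least 14.4-fold), HEY1 (4.24) and HEYL (1.01), and 1 was called lower, ID3, with -0.78. Of all probes measured in at least 1 line, 38.9% were called, and 9 genes are too few for a result about the list. Of 21 corepressors and regulators of REST, all of them measured in at least 1 line, 4 were called higher and 4 lower. That share is near the 38.9% called among all probes measured in at least 1 line, and is no result about the list. SRRM4, a splicing factor of neurons that alters the REST transcript, was at least 8.15-fold higher in TT, RCOR2, a corepressor of the CoREST family, was higher by 4.80 and ZMYM2 by 1.48, and CTDSPL, a phosphatase recruited by REST, was 2.83-fold lower.

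The question for pre-miR-375 in Nthy-ori 3-1 was whether any of these genes moved when miR-375 was raised in a cell line with few C cell transcripts. Of 50594 probes, 0% were called at the adjusted threshold, 14.3% had an unadjusted p under 0.05, and 9.49% differed at least 1.5-fold in the same direction in both pairs of arrays. None of the 8 genes was called, 2 of 8 had an unadjusted p under 0.05, REST and ISL1, and 1 of 8, REST, passed 1.5-fold in both pairs. These shares of 8 genes rest on 2 genes and 1 gene and are not a result about the group. This comparison shares the Nthy-ori 3-1 control arrays with that of the lines.

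REST read 8.64 and 8.38 in control cells and 7.65 and 7.36 with pre-miR-375. The 2 treated arrays lay below both control arrays, and within the pairs that shared a slide the differences were -0.99 and -1.02. The log2 difference was -1.01 (SE 0.08, 95% interval -1.36 to -0.66), that is 2.01-fold lower, with an adjusted p of 0.318. The alternatives gave adjusted p between 0.0383 and 0.583 and differences between -1.02 and -0.78. REST passed the threshold under 2 of 12 of them, with an adjusted p of 0.0383 after normexp background correction, where 1560 probes were called, and of 0.0488 when dim probes were left out, where 999 were called.

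ISL1 read 8.27 and 7.72 in control cells and 8.78 and 8.29 with pre-miR-375. Both treated arrays were above both control arrays, by 0.52 and 0.57 within the pairs, and the log2 difference of 0.54 (SE 0.08, adjusted p = 0.318) did not pass the threshold. MYT1 read 6.28 and 6.49 in control and 6.43 and 6.76 in treated cells, so the groups overlapped (0.21, 95% interval -0.19 to 0.60, adjusted p = 0.505). INSM1, FOXA2 and ST18 were not well above background with pre-miR-375 either, at 1.90 and 1.86, 2.64 and 2.18, and 3.57 and 2.56. FOXA1 also stayed below that level on its probe of 10 spots, at 2.73 and 3.21, while its dimmer probe read 7.28 on pre-miR-375 replicate 2 alone against 3.52 on replicate 1.

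**Figure D2:**
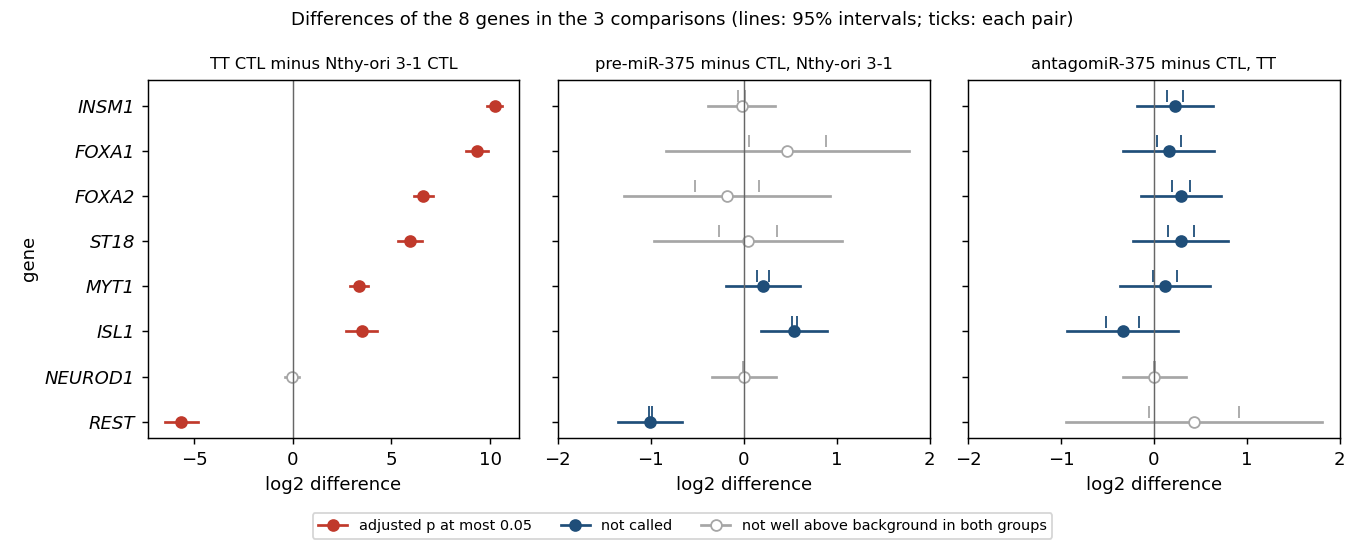
Log2 difference of each of the 8 genes in the 3 comparisons. Points are estimates, horizontal lines are 95% intervals and ticks above them are the differences within each pair of arrays; red marks an adjusted p of at most 0.05, blue a gene that was not called and open grey a gene not well above background in both groups. In the panel for the control cells 7 genes are red; in the other panels none is, and the interval of REST with pre-miR-375 runs from -1.36 to -0.66.

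Genes that REST is reported to repress were described beside it, as a list of 25 neuronal and secretory genes. The list was chosen with earlier results of these data known, so its counts are a description and not a test. In the control cells, 21 of them were called higher and 2 lower in TT, against 12.9% and 12.8% of all probes. Of all probes measured in at least 1 line, 38.9% were called in either direction. REST was not well above background in TT. The median log2 difference of the list was 4.15, against -0.05 over all probes. Among those called higher were CHGA, chromogranin A of secretory granules, at least 5737-fold, the nicotinic receptor subunit CHRNB2, at least 267-fold, and the synaptotagmin SYT4, at least 72.3-fold. BDNF and L1CAM were the 2 called lower in TT, at least 86.8-fold and at least 45.8-fold.

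With pre-miR-375 in Nthy-ori 3-1, 0 of the 25 were called, and 21 of 25 had a positive difference, against 50.9% of all probes; with 75th percentile scaling it was 18 of 25. Their median log2 difference was 0.70, against 0.002 over all probes, and 0.59 and 0.71 in the 2 pairs taken singly. An unadjusted p under 0.05 was found for 14 of 25, of which 13 were higher, against 7.08% of all probes higher at that p. In all, 12 of 25 passed 1.5-fold in both pairs, all of them higher, against 9.49% of all probes in either direction. Because earlier results were known when the list was chosen, these shares are no independent support for a change of the list. Of the 25, 6 were well above background on both treated arrays and on neither control array, among them CHRNB2, SCG2 and SYP. The same share of all probes was not counted, so this count is no result about the list. Probes well above background numbered 27023 and 26799 on the control arrays and 26101 and 29214 on the treated arrays.

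CHRNB2 read 2.09 and 2.41 in control and 7.04 and 7.18 in treated Nthy-ori 3-1 cells, so that it was well above background with pre-miR-375 alone, at least 6.73-fold higher (adjusted p = 0.318). SCG2, the granule protein secretogranin II, read 2.10 and 4.62 in control and 6.72 and 8.42 in treated cells, at least 8.60-fold higher (adjusted p = 0.318). In TT control cells the levels were 12.47 and 12.37 for CHRNB2 and 9.29 and 9.72 for SCG2. Others were chosen after their values were seen. SYP, the synaptic vesicle protein synaptophysin, read 1.91 and 2.11 in control and 5.50 and 6.16 in treated cells. VGF, a granule protein measured on all arrays, read 12.26 and 12.63 in control and 14.02 and 14.49 in treated cells. CPLX1, complexin 1, read 6.53 and 6.19 in control and 8.68 and 8.52 in treated cells. The treated and control arrays did not overlap in these 5 genes, which were named for their values, so this is no result about the list.

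The other direction was seen in BDNF, with a log2 difference of -0.53, and L1CAM, with -0.74. Among the genes below background on every Nthy-ori 3-1 array, SYT4, STMN2 and SRRM4 differed by 0.02 or less in size. GRIN1, a glutamate receptor subunit and 1 of the 12 genes past 1.5-fold, differed by 1.11. UNC13A differed by 0.90, which came from treated replicate 2 alone, with 1.93 and 1.84 in control and 1.95 and 3.62 in treated cells. No change can be read from genes below background. Of the C cell markers, 0 of 11 were called with pre-miR-375 and 7 of 11 had a positive difference. In number, 3 of 11 were well above background on each control array and 7 and 8 of 11 on the treated arrays, and the log2 of their summed signal went from 8.34 and 8.19 to 9.52 and 9.55. Of those markers, 4, CHGA, CHGB, SCG2 and SCG3, are also in the list of reported REST targets. CALCA read 3.91 and 3.57 on the control arrays and 8.12 and 4.51 on the treated arrays, so the pairs differed by 4.21 and 0.94. It has 3 probes, and this one had the highest difference, 2.58, while the lowest was 0.21. The receptor genes RET and GFRA4 had differences of -0.25 and -0.46, and DLK1 one of -0.11. DDC, which read 14.59 and 14.75 in TT control cells, read 1.73 and 1.71 with pre-miR-375, and PCSK1 and INSM1 were likewise not well above background there. The part of the C cell markers in the values of the list was not tested.

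**Figure D3:**
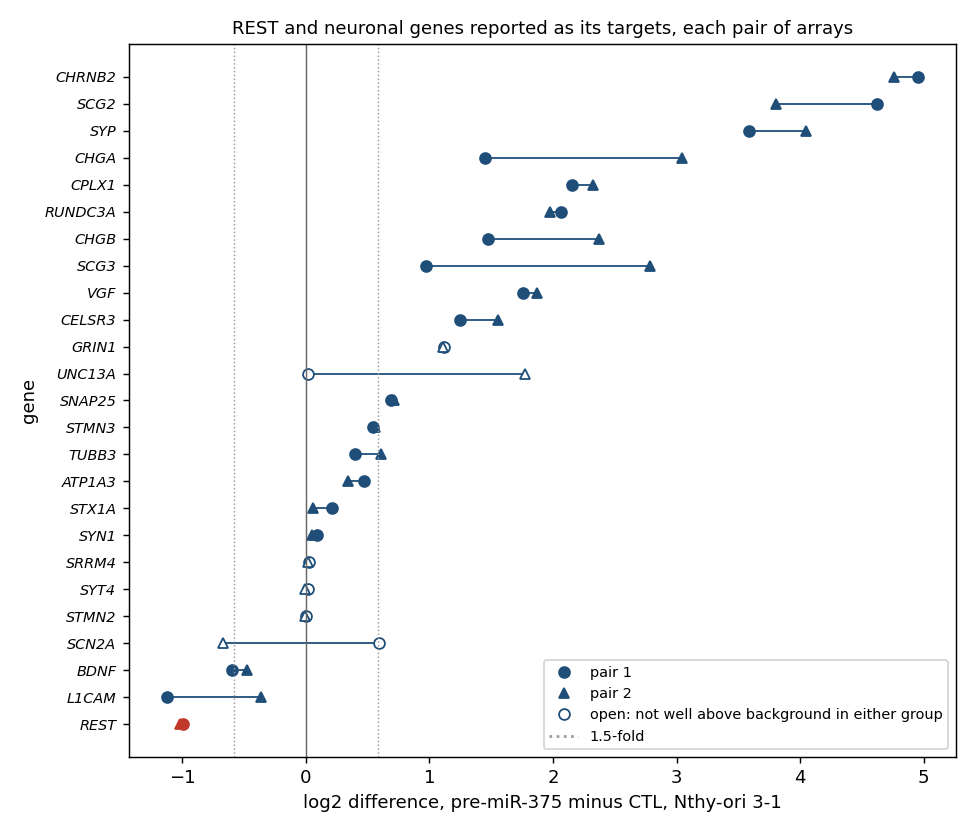
Log2 difference between pre-miR-375 and control in Nthy-ori 3-1 for REST (red) and genes reported as its targets (blue), in each pair of arrays; 1 of the 25 is not drawn. Circles are pair 1, triangles pair 2, open symbols genes not well above background on both arrays of either group, and dotted lines mark 1.5-fold. REST lies near -1 in both pairs, 12 of the 25 genes lie beyond 1.5-fold on the higher side in both pairs, and BDNF and L1CAM lie below 0 in both pairs.

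REST binds a long element whose first part reads TTCAGCACC in its common form. These letters were searched for on both strands of the RefSeq promoters (GRCh38.p14, 250 bases before to 50 after each start). They stand in 132 of 35116 promoters, or 0.376%. Of the 25 listed genes, 16 had a promoter in the table and 4 of these held the letters, CELSR3, SCG3, SYN1 and UNC13A, and of the 8 transcription factor genes 5 had one and 0 held them. The 4 promoters are printed 5′ to 3′ in the direction of the gene, to show these letters beside the values that follow. The match, or its reverse complement in UNC13A, is in capitals. The rest of the element was not searched for, so the 4 matches may differ in how much of it they hold. They lie at chr3:48662837-48663136 and chrX:47619808-47620107 and chr19:17688305-17688604 on the minus strand and at chr15:51681253-51681552 on the plus strand.
CELSR3: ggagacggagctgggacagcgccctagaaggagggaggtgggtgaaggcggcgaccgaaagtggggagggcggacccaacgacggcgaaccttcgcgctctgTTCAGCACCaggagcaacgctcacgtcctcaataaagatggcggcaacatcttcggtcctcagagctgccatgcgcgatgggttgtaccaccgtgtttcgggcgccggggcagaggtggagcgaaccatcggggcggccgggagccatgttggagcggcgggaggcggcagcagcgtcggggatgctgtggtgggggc
SCG3: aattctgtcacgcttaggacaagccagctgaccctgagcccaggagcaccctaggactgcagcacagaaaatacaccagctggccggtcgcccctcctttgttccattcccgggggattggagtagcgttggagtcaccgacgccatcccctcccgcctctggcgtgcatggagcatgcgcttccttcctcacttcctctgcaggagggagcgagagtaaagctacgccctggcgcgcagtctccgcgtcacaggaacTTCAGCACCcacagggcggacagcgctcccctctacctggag
SYN1: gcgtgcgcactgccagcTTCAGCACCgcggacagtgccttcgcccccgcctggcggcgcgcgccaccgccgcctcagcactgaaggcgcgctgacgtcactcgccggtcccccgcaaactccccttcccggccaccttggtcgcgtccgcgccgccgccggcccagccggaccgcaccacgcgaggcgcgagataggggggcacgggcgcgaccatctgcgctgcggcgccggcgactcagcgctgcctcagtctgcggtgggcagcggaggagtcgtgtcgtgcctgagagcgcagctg
UNC13A: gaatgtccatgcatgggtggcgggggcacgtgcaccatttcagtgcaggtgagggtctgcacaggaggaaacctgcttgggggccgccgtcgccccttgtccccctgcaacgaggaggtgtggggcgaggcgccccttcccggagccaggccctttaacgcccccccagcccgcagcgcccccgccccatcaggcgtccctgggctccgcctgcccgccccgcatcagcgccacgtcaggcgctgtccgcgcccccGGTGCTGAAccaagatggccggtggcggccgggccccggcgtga

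The 4 genes did not have the same values. CELSR3, a cadherin of axon guidance, read 5.98 and 6.11 in control and 7.23 and 7.67 in treated Nthy-ori 3-1 cells, and SCG3, secretogranin III, read 4.14 and 3.26 against 5.11 and 6.05. SYN1, synapsin I, read 5.29 and 5.29 against 5.39 and 5.34, a difference of 0.07. UNC13A, a synaptic vesicle priming protein, was not well above background with or without pre-miR-375. A match of letters is a description of the sequence and says nothing of binding in these cells.

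Among the corepressors and regulators of REST, 0 of 21 were called with pre-miR-375. USP7, a deubiquitinase of REST, had a difference of -0.87 and SRRM3 one of -0.96, although the other probes of SRRM3 reached 1.15. Of the 26 further neuroendocrine factors 0 were called, with a median of 0.01. ETV1, an ETS factor, read 5.95 and 6.84 in control and 7.72 and 8.79 in treated cells, a difference of 1.86 (adjusted p = 0.318), and ONECUT2 had one of 0.82. SOX11 and POU3F2 were not well above background on any Nthy-ori 3-1 array. Of the 14 endoderm factors 0 were called, with SOX9 at -1.04 and GATA6 at -0.20, and of the 9 bHLH antagonists 0 were called, with HEY1 2.15-fold and HES4 1.44-fold higher in mean.

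In TT cells the question was the reverse, whether any of the 8 genes moved when miR-375 was inhibited. Of 50587 probes, 0% were called, 9.73% had an unadjusted p under 0.05 and 4.67% differed at least 1.5-fold in the same direction in both pairs. None of the 8 genes was called, and 0 of 8 met either of the other criteria. This comparison shares the TT control arrays with that of the lines.

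INSM1 read 12.07 and 12.20 in TT control cells and 12.38 and 12.34 with antagomiR-375, a log2 difference of 0.22 (95% interval -0.19 to 0.63, adjusted p = 0.599). FOXA2 read 9.15 and 9.28 against 9.54 and 9.47 (0.29, interval -0.14 to 0.72, adjusted p = 0.547). ST18 read 8.89 and 9.05 against 9.32 and 9.20 (0.29, interval -0.23 to 0.80, adjusted p = 0.593). In these 3 genes, and in FOXA1 below, the treated arrays lay above both control arrays, and each interval included 0. The share of all probes separated in this way was not counted, so this is no result about the group.

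FOXA1 read 11.75 and 11.91 against 12.04 and 11.94 (0.16, interval -0.33 to 0.65), while its dimmer probe read 6.41 and 6.30 against 6.57 and 5.66, a difference of -0.24. MYT1 read 9.70 and 9.80 against 9.95 and 9.79, and the groups overlapped (0.12, interval -0.37 to 0.61). ISL1 was the one measured gene with lower treated arrays, at 11.22 and 11.09 against 11.37 and 11.60 (-0.34, interval -0.93 to 0.26, adjusted p = 0.591). REST read 3.47 and 3.10 with antagomiR-375, not well above background, so that a change of REST was not detectable at this signal.

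The reported REST targets had a median difference of 0.15 with antagomiR-375, and 0 of 25 were called. VGF had the largest, 0.70, and UNC13A had 0.57. The 26 further neuroendocrine factors had a median of 0.26, with ISL2 at 0.72 and ONECUT2 at 0.36. Only 15 of the 26 were measured, so genes below background enter that median. The 21 corepressors had a median of -0.02, with CTDSP2 at -0.39 and SRRM3 at 0.35, and 0 were called in either list. Over all probes the median was 0.001. Of the 9 bHLH antagonists, 3 differed at least 1.5-fold in the same direction in both pairs, against 4.67% of all probes. ID4 read 8.36 and 8.06 in control and 10.14 and 10.14 in treated cells, a difference of 1.93 (SE 0.13, adjusted p = 0.512), and ID1 read 13.04 and 12.98 against 14.58 and 14.46, a difference of 1.51 (SE 0.09, adjusted p = 0.512). ID3, chosen after its values were seen, read 11.12 and 11.18 against 12.22 and 12.25. In each of the 3, named for their values, the treated arrays lay above both control arrays, and none was called. With pre-miR-375 in Nthy-ori 3-1, ID1 had a difference of 0.14, ID3 one of 0.35, and ID4, not well above background in control cells, one of 0.88 (pairs 0.47 and 1.29). SOX9 had a difference of 0.67 in TT, and NKX2-3 one of -0.28.

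The genes most like each of the 7 measured factors were taken by Pearson r of the log2 level over the 8 arrays, a description with no test, over arrays that come from only 2 lines. All 21 such genes had r of at least 0.998, and between 10.7% and 14.7% of 23291 genes had r of at least 0.95 with a given factor. They were an unnamed transcript (ENST00000451368), DNAH5 and HPN for INSM1, STK32B, PCDH20 and PTPRO for FOXA1, and CKMT2, ANKRD65 and MAGEA1 for FOXA2. For ST18 they were FAIM2, GPX2 and SDK2, for MYT1 SIX2, PPP1R1B and COL2A1, and for ISL1 DAK, FBXO41 and CMTM4. For REST they were SUSD3, TCOF1 and PPARD.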

How the data were processed

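RNA of 8 samples was measured on one-colour Agilent arrays, 2 arrays per group. The authors deposited Feature Extraction 10.10.1.1 output for each array, in which spot intensity is given raw and as a processed signal, background subtracted and not normalized between arrays, and a table of log2 values. The deposited log2 table follows the log2 median signal without background correction (r at least 0.998 on each array) and was used as an alternative only. Per the file headers, probe coordinates are on hg19.

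The processed signal was taken to log2. Control spots and outlier spots (341 to 428 per array) were left out, repeat spots of a probe were averaged, and quantile normalization was then run over all 8 arrays (limma 3.58.1, R 4.3.3). Saturated spots numbered 0. Each comparison was fitted alone with lmFit and eBayes, and p-values were adjusted over all probes. The fits within a line had the replicate number as a block, since arrays of equal number shared a slide and a scan; their deviations correlated at 0.785 in Nthy-ori 3-1 and 0.329 in TT over measured probes. An exact permutation test of 2 arrays against 2 cannot go under 0.333. With 1 residual degree of freedom within a line, the adjusted p depends on the prior degrees of freedom, 0.994 in Nthy-ori 3-1 and 1.13 in TT. The smallest adjusted p was 0.318 and 0.512 in these lines and 0.00125 between them. The number of arrays limits the precision.

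The 8 genes and all lists were chosen with earlier results of these data known. From each list and comparison at most the 4 called genes with the largest difference are named, or, where fewer than 2 were called, the 2 with the largest difference among measured genes that moved the same way in both pairs. Some named genes are not reported here. For each measured factor, the 3 genes with the highest r are named. Alternatives were the scaling, the background correction, the signal, dim probes, outlier spots, the variance prior, the block, the arrays in the fit, each array or pair left out, and the other probe of a gene. The steps were tested on simulated data. Promoter sequences were taken as running in the direction of the gene: for genes on the minus strand, TATAAA stood 16 to 40 bases before the start in 421 of 17329, and its reverse complement at the mirrored place in 63.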

Additional observations from a re-analysis of the deposited data

How the results depend on the processing

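Between the lines, the 7 called genes kept their direction in all 79 combinations of gene and alternative, the other probes of FOXA1 and MYT1 included, and 7 of 8 genes were called under each alternative other than leaving out a TT control array. Leaving out each control array in turn gave 0 to 7 genes called and 0 to 11433 probes called, against 7 and 13029; without TT control replicate 1 both were 0, with adjusted p of 0.0507 for INSM1 and REST, and without TT control replicate 2 they were 4 and 1582. With all 8 arrays and the slide as a random replicate block, 7 genes and 15246 probes were called. REST differed by -5.66, and by -2.48 after normexp correction and -2.69 without background correction. After normexp correction INSM1 differed by 6.36, FOXA1 by 5.795, FOXA2 by 3.19 and ST18 by 2.92. With normexp correction these genes and REST thus fell short of the fold bounds given for the processed signal.

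With pre-miR-375, the number of probes called went from 0 to 1560 with normexp correction, 999 without dim probes, 517 with the median signal and 577 in the deposited table. REST was the 1 gene of the 8 called with normexp correction and without dim probes. The direction of REST, ISL1 and MYT1 was the same in all 36 combinations. Without the replicate block 0 probes were called and REST had an adjusted p of 0.449. The difference of REST was -1.02 without replicate 1 and -0.99 without replicate 2. A lone pair leaves no spread within Nthy-ori 3-1, and the spread in those fits came from the TT arrays. The list of reported REST targets was recomputed under the same alternatives, a step chosen after seeing the data: its median ran from 0.45 to 1.61, the latter without dim probes, where 18 genes are left, 6 of which passed through the treated arrays alone, so that the filter itself raises the median, and 0 to 7 of its genes were called.

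With antagomiR-375, 0 of the 8 genes were called under any of the 12 alternatives, and 10 probes were called with the median signal. The sign turned in 3 of 74 combinations. MYT1, at 0.12, ran from -0.007 without replicate 1 to 0.25 without replicate 2, and the dimmer probes of MYT1 (-0.092) and FOXA1 (-0.24) differ in sign from the probes that stand for those genes. The replicate block changed no call of the 8 genes. The cause of these changes was not tested. REST in TT, and INSM1, FOXA1, FOXA2 and ST18 in Nthy-ori 3-1, are limited by the signal over background.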
